A study of Solanum tuberosum with 6 samples.

Results

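The genes described here are 3 potato genes grouped under leaf defence: the leucine aminopeptidase gene LOC102595887 and the threonine dehydratase genes TD and LOC102583664. Their part in defence was not tested, and the study names LOC102583664 a biosynthetic threonine dehydratase. All 3 were taken by symbol from the 32768 genes of a leaf RNA-seq count table. They were picked because the study lists leucine aminopeptidase and threonine dehydratase among the proteins or transcripts that differed between its bulks, C and D. They were thus chosen by the level measured in C against D, in transcripts or proteins, and their levels in that contrast are given as a description, with no test. Both bulks were leaf pools of F1 individuals of the diploid hybrid population 15-1, bred from an interspecific Solanum hybrid and S. chacoense, grown in a greenhouse, untreated and sampled at full anthesis. Bulk C had low glycoalkaloids and a high phytotoxic potential (the growth inhibition of mustard seedlings by leaf extract), and bulk D had low glycoalkaloids and a low phytotoxic potential. The values cover 3 libraries of C (C1, C2, C3) and 2 of D (D1, D2). Library D3 is not analysed here. The libraries of a bulk measured pools from a few plants, so a difference between bulks cannot be tied to a single genotype, and p-values measure the spread between libraries, which may be technical.

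In tomato and its relatives, wounding and chewing insects raise jasmonate, an oxylipin made from plastid fatty acids by lipoxygenase, allene oxide synthase and oxophytodienoate reductase. Jasmonate is joined to isoleucine, and the conjugate removes the JAZ (TIFY) repressors that hold back MYC2-type transcription factors. Among the jasmonate-responsive products known from tomato leaves are protease inhibitors, polyphenol oxidase, an acidic leucine aminopeptidase, which trims residues from the amino end of peptides, and a threonine dehydratase, which deaminates threonine. Threonine dehydratase also opens the synthesis of isoleucine, and in tomato a separate copy of the enzyme acts in the insect gut, where it degrades threonine.

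The total was 22070364 to 22769554 counts per library, at which 3 counts, the floor used below, corresponded to 0.122 to 0.142 CPM (CPM: counts scaled to a common library size, adjusted by TMM factors). Leaf identity was checked with marker genes. The 3 genes found by a Rubisco small subunit symbol summed to between 11500 and 13200 CPM in C and between 9900 and 11600 CPM in D. Of them 2 were called higher in C. The call of LOC102601229 was lost without C3 (adjusted p = 0.0602), and its log2 FC fell to 0.27 without D1. The 2 genes found by a patatin symbol, a tuber marker, summed to at most 0.366 CPM in any library. Of these LOC102605260 had 0 reads in every library, so the sum rests on LOC102605593. Only 1 chlorophyll a-b binding protein gene, LOC102604990, was taken as a marker, so it does not stand for its family. It stood at 15.5 to 19.9 CPM in C and 0.733 to 1.08 CPM in D (log2 FC 4.33, C over D, adjusted p = 6.44e-08). The flower gene AP1 had 34, 35 and 36 reads in C against 3 and 15 in D, a call of higher in C that was lost without D1 (adjusted p = 0.0655). The other flower gene, MADS16, went the opposite way, at 30.7, 30.5 and 29.8 CPM in C and 35.7 and 36.0 CPM in D (log2 FC -0.24, adjusted p = 0.0466), a call lost without C2, C3, D1 or D2 (adjusted p = 0.103 to 0.16). Summed, the flower genes stood at 31.4 to 32.3 CPM in C and 35.8 to 36.7 CPM in D. The Rubisco sums overlapped between the bulks, as did RBCS-C, the Rubisco gene of highest level (log2 FC 0.08, adjusted p = 0.619). The other leaf genes and the flower genes differed between the bulks in the full fit, the flower genes in opposite directions. The part of these leaf and flower genes in the results below was not tested. In pooled leaf, fewer cells of a type and less RNA per cell cannot be told apart.

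LOC102595887, which the annotation also lists as LAP, lies on an unplaced scaffold of the SolTub_3.0 assembly (1430898 to 1434575). It had 37 reads in C1, 83 in C2 and 97 in C3, against 2822 in D1 and 2294 in D2. Scaled for library size these were 1.75, 3.63 and 4.4 CPM in C and 115 and 103 CPM in D. Both D libraries were high and all C libraries were low, with no overlap, although the gene was read in every library. The bulk means were 3.26 ± 1.37 CPM for C (SD, n = 3) against 109 ± 8.24 CPM for D (SD, n = 2), which was 33.4-fold higher. The ratio of single libraries ran from 23.5 (lowest D over highest C) to 65.7 (highest D over lowest C). The fitted log2 FC, C over D, was -5.05 (approximate SE 0.197), and it lay between -5.32 and -4.77 when 1 library at a time was left out.

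TD also lies on an unplaced scaffold (125223 to 131415). It had 572, 719 and 599 reads in C1, C2 and C3, and 2380 and 2176 reads in D1 and D2. On the scaled sizes these were 27.0, 31.5 and 27.2 CPM in C and 96.9 and 97.9 CPM in D. Again both D libraries stood above all C libraries, but here the C libraries kept a level well above the floor. The bulk means were 28.6 ± 2.54 CPM for C (SD, n = 3) against 97.4 ± 0.73 CPM for D (SD, n = 2), a fold of 3.41 with single-library ratios of 3.08 to 3.62. The log2 FC was -1.77 (approximate SE 0.0891), and -1.85 to -1.73 with 1 library left out.

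LOC102583664, the other threonine dehydratase gene (unplaced scaffold, 2636158 to 2639387), was read in D only. It had 0 reads in C1, C2 and C3, 69 reads in D1 (2.81 CPM) and 55 in D2 (2.47 CPM). The mean in D was 2.64 ± 0.236 CPM (SD, n = 2), at least 19.4-fold higher than the mean level of 3 counts per C library. At this depth a level in C below 3 counts per library was too low to be measured well.

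Every C library stood below every D library for all 3 genes, as it did for 30.3% of the 19630 tested genes. Nothing is read from this count, since the contrast chose the genes. The difference of LOC102595887 (33.4-fold) was larger than that of TD (3.41-fold). LOC102583664 has a lower bound only (19.4-fold), which lies above the fold of TD, and it cannot be placed against LOC102595887. Without C3, whose bulk depends on how the header of the count table is read, the log2 FC was -5.32 for LOC102595887 and -1.73 for TD, and the fold of LOC102583664 was at least 19.4.

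**Figure D1:**
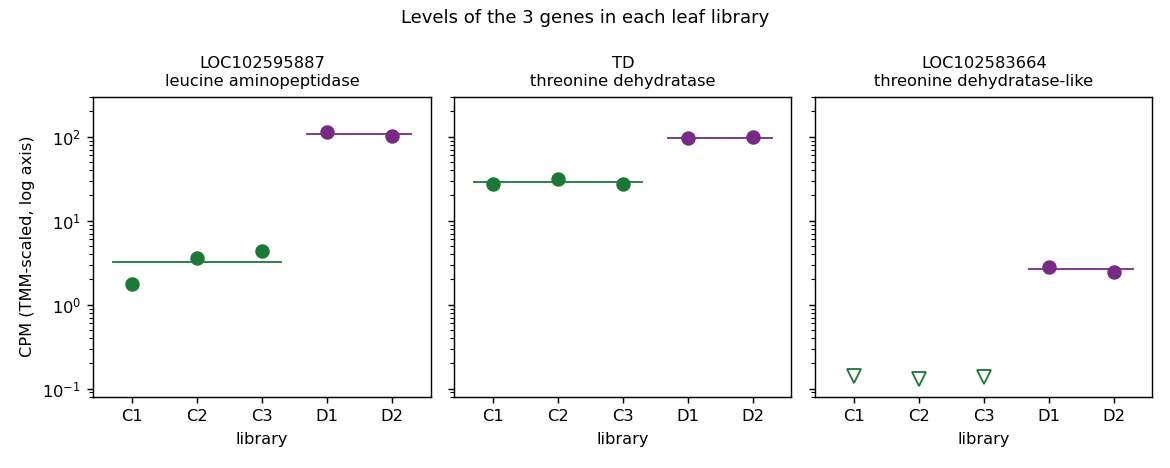
Level of each gene in every library, in CPM on a log axis (green C1 to C3, purple D1 and D2). Filled points are measured levels, horizontal lines are bulk means and open triangles mark libraries with 0 reads, drawn at the level of 3 counts. The D points lie above the C points in each panel, LOC102595887 is the gene whose C points spread most (1.75 to 4.4 CPM), and LOC102583664 has C triangles only.

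The libraries of a bulk were compared with each other as well, a measure the choice of genes did not use. In C, the highest level of LOC102595887 was 2.52 times the lowest, more than counting error gives (exact multinomial test, two-sided, p = 1.65e-06, adjusted over 5 such tests 8.27e-06). C1 was the low library. In D the ratio of the gene was 1.11 and also passed the exact binomial test (p = 0.00014, adjusted p = 0.00035). Of the 2010 tested genes with a mean of 50 to 100 counts over C, 45 (2.24%) had a ratio within C at least as large as LOC102595887. TD varied by 1.17 times within C (exact p = 0.00705, adjusted p = 0.0117) and 1.01 times within D (exact p = 0.722). For LOC102583664 the D libraries differed by 1.13 times, within counting error (exact p = 0.529). The tests cover counting error only.

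The reads of both threonine dehydratase genes were also set against each other. LOC102583664 took 69 of 2449 reads in D1, or 2.82% (95% Clopper-Pearson interval 2.2% to 3.55%), and 55 of 2231 in D2, or 2.47% (1.86% to 3.2%). The intervals of D1 and D2 overlap. In C it took 0 of 572, 0 of 719 and 0 of 599 reads, which at 3 counts per library allows shares of up to 0.524%, 0.417% and 0.501%. Over the bulk, 0 of 1890 reads gave an interval by the same method that reached 0.195%. TD thus carried nearly all reads of the pair in either bulk. How the counting treated reads that fit both genes is not stated in the sources used here, so the split between the copies is uncertain. Gene lengths without introns were not used here, and the shares compare reads, not levels per length.

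A further gene under the L-threonine ammonia-lyase term, LOC102592163, went the other way. It ends 251.6 kb before LOC102583664 on what the order of the annotation gives as the same scaffold. Its levels were 253, 247 and 255 CPM in C1 to C3 and 175 CPM in both D1 and D2, all C libraries above all D libraries, an order found in 26.8% of tested genes. It was upregulated in C by a log2 FC of 0.52 (approximate SE 0.0796, edgeR adjusted p = 4.23e-04), 1.44-fold. Across all tested genes 15.8% were called higher and 18.6% lower in C.

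Genes for later steps of isoleucine synthesis were higher in C or not called. LOC102595762, listed under acetolactate synthase, the next enzyme of the route, had 1160, 1080 and 1050 CPM in C and 681 and 739 CPM in D. It was higher in all C libraries (log2 FC 0.63, approximate SE 0.0927, adjusted p = 3.42e-04). BCAT2, a branched-chain aminotransferase of the last step, had 173, 154 and 163 CPM in C and 122 and 130 CPM in D. Its log2 FC was 0.37 (approximate SE 0.0854, adjusted p = 5.76e-03), and without D1 it missed the threshold (0.31, adjusted p = 0.0504). BCAT1, the other aminotransferase of that name, had 8.71 to 10.1 CPM in C and 8.51 to 9.45 CPM in D, which overlap (log2 FC 0.08, adjusted p = 0.692). Without TD and LOC102583664, which were lower in C, the list of isoleucine-route genes grouped here held 3 genes, LOC102592163 among them. All 3 were called higher in C, where 15.8% of all tested genes were. Their median log2 FC was 0.52, beside -0.009 over all tested genes. The genes of this list come from lists the study chose on these libraries, so it is not independent evidence of its direction.

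**Figure D2:**
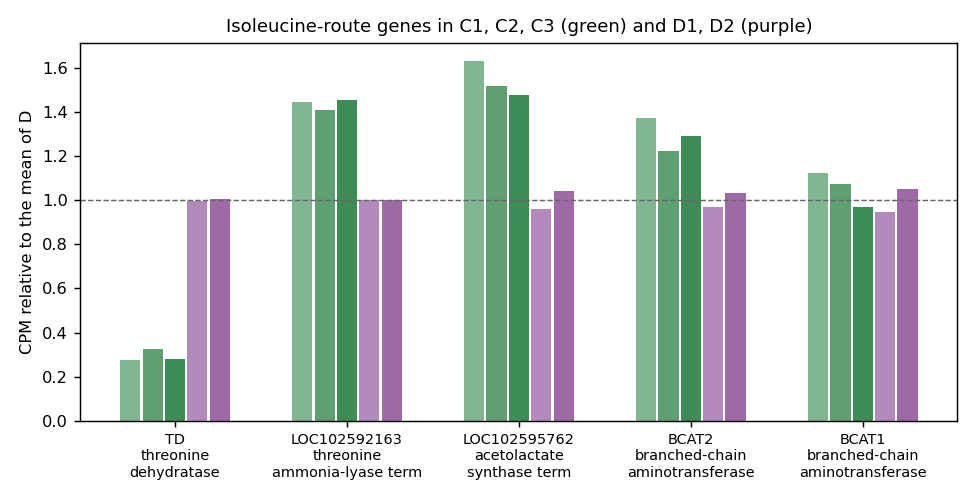
Level of TD and of 4 other genes around isoleucine synthesis in each library, as CPM divided by the gene's mean in D (dashed line at 1; bars start at 0). TD lies far below 1 in C1 to C3, while LOC102592163, LOC102595762 and BCAT2 lie above it in all C libraries and BCAT1 scatters around it.

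Other aminopeptidase genes were higher in C or not called. The study names 7 more genes as changed under the aminopeptidase term. Here 0 were lower in C, 6 were called higher and 1 was not called, beside 18.6% lower and 15.8% higher over all tested genes. The log2 FCs were 0.22 to 0.65, with a median of 0.44. Only 2 of the 6 calls, LOC102591471 and LOC102597467, remained once replicate number was added to the fit. The list holds changed genes only, by the study's own choice, and was added after the data were seen. LOC102591471 had 98.2, 115 and 110 CPM in C and 72.3 and 65.5 CPM in D, without overlap. It had the highest log2 FC of the list (0.65, approximate SE 0.0937, adjusted p = 3.03e-04). LOC102592985, which also falls under the metalloaminopeptidase term, had 224, 284 and 271 CPM in C and 201 and 157 CPM in D (log2 FC 0.54, adjusted p = 6.28e-03). This call was lost without D2 (0.36, adjusted p = 0.0727). LOC102597467, LOC102587246 and LOC102578826 were higher in C by log2 FCs of 0.53, 0.44 and 0.36 (adjusted p = 3.60e-04, 1.65e-03 and 3.80e-03). LOC102601334 had a log2 FC of 0.38 (adjusted p = 0.0191), a call lost without C2 (adjusted p = 0.0753), C3 (adjusted p = 0.0818) or D2 (adjusted p = 0.124). LOC102584238, at 146 to 159 CPM in C and 130 CPM in both D libraries, was not called (log2 FC 0.22, adjusted p = 0.058).

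The listed genes of oxylipin and jasmonate synthesis were mostly lower in C. Of these 8 genes 7 were tested, 6 were called lower in C and 1 higher. Over all tested genes 18.6% were lower and 15.8% higher. The median log2 FC of the list was -0.82. Its genes come from lists the study drew up on these libraries and were grouped here, with no allene oxide synthase gene among them. The group also leaves out the lipoxygenase gene LOC102597498 (LOX3.1), which was not called (log2 FC 0.24, adjusted p = 0.0931). The lipoxygenase gene LOC102596122 (LOX2.1 in the annotation), of the class that oxygenates fatty acids for jasmonate or leaf volatiles, had 26.7, 37.8 and 39.6 CPM in C and 73.5 and 61.1 CPM in D. All D libraries were above all C libraries (log2 FC -0.95, approximate SE 0.143, adjusted p = 3.80e-04). LOC102596456, under the same 13S-lipoxygenase term, was lower in C by less (log2 FC -0.45, adjusted p = 0.0148). That call was lost without C3 (adjusted p = 0.0579) and without D1 (adjusted p = 0.0983). POTLX-3 was low in both bulks, with 5, 10 and 15 reads in C against 40 and 39 in D (log2 FC -1.89). It passed the filter on low counts only because of the D libraries. Its call, counted among the 6 lower in C, is thus a description. LOC102594007, not tested, had 0 reads in C against 12 and 9 in D.

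The oxophytodienoate reductases, which reduce the cyclic precursor of jasmonate, were lower in C in all 3 genes listed. LOC102597899 had 8.45, 8.49 and 7.49 CPM in C and 17.7 and 18.0 CPM in D (log2 FC -1.13, approximate SE 0.117, adjusted p = 2.51e-05). LOC102579964 and LOC102598213 followed with log2 FCs of -0.67 and -0.82 (adjusted p = 2.15e-04 and 7.64e-05). HPL, the hydroperoxide lyase, which draws the same fatty acid hydroperoxides into leaf aldehydes, was the exception of the list. It had 380, 346 and 367 CPM in C and 262 and 311 CPM in D (log2 FC 0.35, adjusted p = 0.0164), a call lost without C3 (adjusted p = 0.0714) and without D1 (adjusted p = 0.18).

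Of 5 genes of jasmonate conjugation and turnover 4 were lower and 1 higher in C, beside 18.6% lower and 15.8% higher over all tested genes. The median log2 FC of these 5 genes was -0.71, and they come from lists the study chose on these libraries. LOC102578750 and LOC102603612, under the jasmonate-amino synthetase term, had log2 FCs of -0.37 (adjusted p = 3.50e-03) and -0.71 (adjusted p = 5.78e-04). The call of LOC102578750 was lost once replicate number was added to the fit (adjusted p = 0.1). LOC102600861, which shares this term but is named an indole-3-acetic acid-amido synthetase, an enzyme of auxin conjugation, was higher in C (log2 FC 0.77, approximate SE 0.0781, adjusted p = 2.09e-05). The jasmonate O-methyltransferase gene LOC102599555 had 21, 21 and 13 reads in C against 129 and 120 in D (log2 FC -2.67, approximate SE 0.251, adjusted p = 1.13e-05). LOC102586169, for the hydroxylase that inactivates the isoleucine conjugate, had 13, 6 and 10 reads in C against 62 and 44 in D (log2 FC -2.34, adjusted p = 5.74e-04). Both genes were low in all C libraries and lay below D without overlap, as did 30.3% of tested genes.

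Of 6 signalling genes only 3 had enough reads to be tested, of which 2 were lower in C and 1 was not called. Over all tested genes 18.6% were lower in C, and the signalling genes come from lists the study chose on these libraries. The TIFY repressor gene LOC102578956 had 32, 47 and 57 reads in C against 359 and 338 in D (log2 FC -2.85, approximate SE 0.182, adjusted p = 5.29e-07). The related LOC102592139 had 24, 33 and 47 reads in C against 25 and 22 in D (log2 FC 0.64, adjusted p = 0.182). The MYC2-like gene LOC102588761 had 0 reads in every C library and 12 and 17 in D, at least 4.59-fold higher in D than 3 counts per C library. It passed the filter on low counts through the D libraries alone, so its call as lower in C is a description. Without D1, or without D2, the list had 1 call. The other 3 signalling genes had at most 3 reads in any C library and at most 13 in any D library.

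Protease inhibitors, which block the gut enzymes of insects, had the lowest median log2 FC of these lists. Of 10 genes tested 9 were lower in C and 1 higher, beside 18.6% lower and 15.8% higher over all tested genes. The median log2 FC of these 10 genes was -3.34, and they come from lists the study chose on these libraries. The proteinase inhibitor I gene LOC102596894 had 112, 85 and 86 reads in C against 5669 and 6209 in D. With means of 4.3 and 255 CPM it was 59.3-fold higher in D (log2 FC -5.89, approximate SE 0.139, adjusted p = 4.10e-10). LOC102604873, also of the inhibitor I family, had 29.6, 34.0 and 32.0 CPM in C and 211 and 286 CPM in D, 7.8-fold higher (log2 FC -2.96, adjusted p = 1.37e-08). The C libraries of both genes were low and all lay below D, an order found in 30.3% of tested genes. The proteinase inhibitor II gene LOC102605262 was 11.4-fold higher in D, the cystatin gene LOC107063353 15.5-fold, and the Kunitz-family genes LOC102604256 and LOC102593157 11.3- and 10.7-fold. PPI2C1A (inhibitor II), LOC102592480 (Kunitz family) and LOC102598989 (cystatin) were lower in C by log2 FCs of -2.23, -3.27 and -2.51 (adjusted p = 6.37e-06, 1.15e-04 and 4.52e-06). LOC107061909, of the inhibitor I family, went the other way, with 90.8, 87.0 and 89.1 CPM in C and 43.1 and 55.1 CPM in D (log2 FC 0.86, approximate SE 0.104, adjusted p = 8.02e-05).

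Polyphenol oxidases, which make quinones from phenolics in damaged leaf, were lower in C in both listed genes. PPO had 3.87, 5.3 and 5.85 CPM in C and 10.9 CPM in both D libraries (log2 FC -1.12, adjusted p = 3.88e-04), and LOC102605738 had 25, 25 and 23 reads in C against 156 and 154 in D (log2 FC -2.58, adjusted p = 2.81e-06). Among pathogenesis-related genes, which respond to microbes, 3 of 3 were lower in C. PR1B had 13.2, 11.8 and 11.2 CPM in C and 34.0 and 38.6 CPM in D (log2 FC -1.59, adjusted p = 9.69e-07). LOC102582578, of an STH-2-like protein, had 167, 154 and 136 CPM in C and 479 and 570 CPM in D (log2 FC -1.78, adjusted p = 3.10e-07). LOC102589208, of a glucan endo-1,3-beta-glucosidase, an enzyme that cuts fungal wall glucans, had 9.54, 7.88 and 8.44 CPM in C and 33.4 and 49.0 CPM in D (log2 FC -2.26, adjusted p = 9.68e-07). None of these genes overlapped between the bulks, and every C library lay below every D library, as in 30.3% of tested genes. Over these lists, with the isoleucine-route genes and without the aminopeptidases, TD or LOC102583664, 33 of 37 genes were tested. Of these 26 were lower in C, 6 were higher and 1 was not called, beside 18.6% lower and 15.8% higher over all tested genes. Their genes come from lists that the study drew up on these libraries, so the counts are not independent evidence. Among the lower genes, POTLX-3 and LOC102588761 passed the filter on low counts only because of the D libraries.

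A list taken by gene symbol alone (lipoxygenases, protease inhibitors, polyphenol oxidase and branched-chain aminotransferases), added after the data were seen, held 15 genes, of which 10 were tested, 6 were lower in C, 1 was higher and 3 were not called. Of these 15 genes 6 are also in the lists above, among them 5 of the lower genes and the higher one. The lower genes include POTLX-3, which passed the filter on low counts only because of the D libraries. Of the 9 others 4 were tested, 1 was lower in C, 0 were higher and 3 were not called, beside 18.6% lower and 15.8% higher over all tested genes. The cysteine protease inhibitor gene LOC102594249 had 12.5, 9.37 and 13.4 CPM in C and 203 and 238 CPM in D (log2 FC -4.23, adjusted p = 1.80e-09). By contrast the inhibitor gene LOC102577839 had 33.6, 33.0 and 28.0 CPM in C and 22.7 and 32.3 CPM in D, which overlap (log2 FC 0.20, adjusted p = 0.298). It was called higher in C without D2 (0.47, adjusted p = 0.0276). The lipoxygenase gene LOC102597498 (LOX3.1) overlapped too, at 127 to 159 CPM in C and 116 to 129 CPM in D (log2 FC 0.24, adjusted p = 0.0931), and was called higher in C without C1 (0.32, adjusted p = 0.0131).

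**Figure D3:**
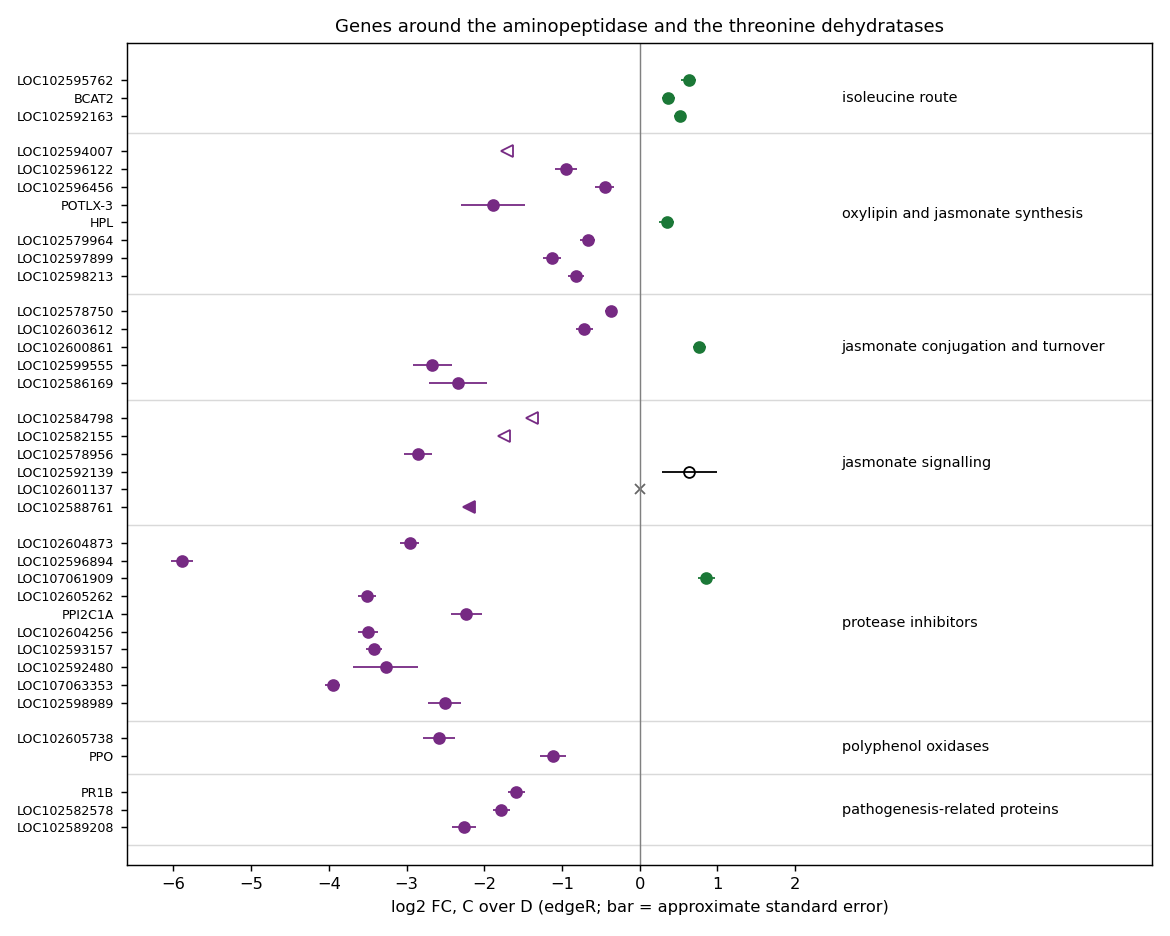
Fitted log2 FC (C over D) of each listed gene, by group, with approximate standard errors (purple lower in C, green higher in C, open black circle not called). Left-pointing triangles stand at the lower bound for genes with 0 reads in every C library (open where not tested), and a grey cross on 0 marks a gene too low to test. TD and LOC102583664 are not drawn. The protease inhibitors reach -5.89, the isoleucine-route genes drawn lie at 0.37 to 0.63, and 1 gene each of the synthesis, conjugation and inhibitor groups lies on the green side.

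The order of the libraries was compared as well. LOC102595887 was lowest in C1 within C and higher in D1 than in D2. The same order was found in 2 of 7 tested synthesis genes, the lipoxygenase genes LOC102596122 and LOC102596456, in 0 of 10 protease inhibitors, and in 25.6% of all tested genes. It is given as a description.

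The genes nearest to each of the 3 on the scaffolds, 6 on either side, were read as a comparison by position. Their functions were not checked. Around LOC102595887, 8 of 12 neighbours were tested and 0 were called, with log2 FCs of -0.20 to 0.22. LOC102596228, which begins 0.68 kb after the end of LOC102595887, had 118, 126 and 129 CPM in C and 113 and 99.6 CPM in D (log2 FC 0.22, adjusted p = 0.0678). Around TD 10 of 12 were tested, 0 were lower and 2 higher in C, LOC102584389 (log2 FC 0.80, adjusted p = 0.0185) and LOC102582066 (0.51, adjusted p = 7.91e-04). Around LOC102583664 7 of 12 were tested, 2 were lower and 1 higher, none beyond -0.40 or 0.58. In all, 25 of 36 neighbours were tested, 2 were lower and 3 higher in C, beside 34.4% called in either direction over all tested genes. A further 7 neighbours had no count in any library.

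**Figure D4:**
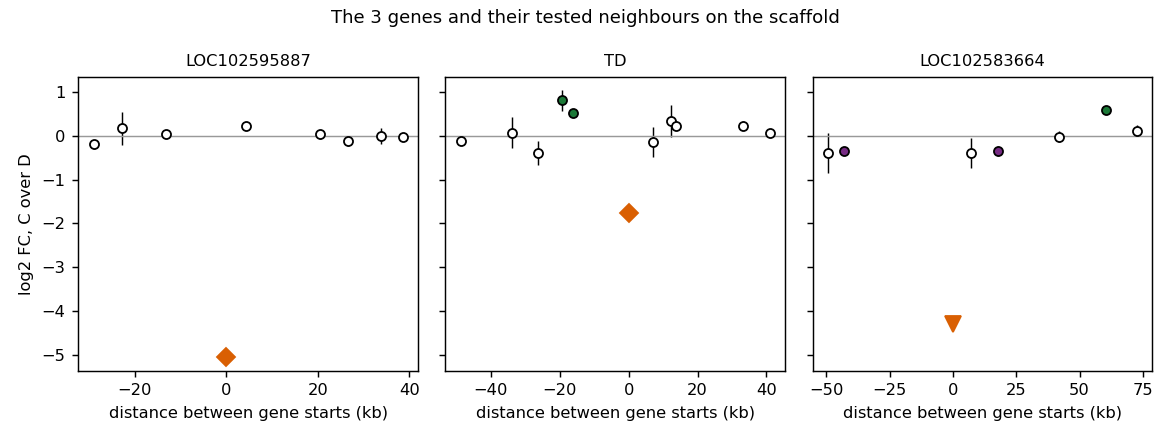
Log2 FC (C over D) of the tested neighbours against the distance between gene starts in kb, with approximate standard errors (open not called, purple lower in C, green higher in C). Orange marks the gene itself at 0 kb, a diamond for a fitted value and a triangle for the lower bound of LOC102583664. The neighbours lie between -0.40 and 0.80 while the orange marks lie at -1.77 and below.

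The genes with the most similar profile over the 5 libraries were sought by the distance of centred log2(CPM + 0.5) values among 17672 genes with a mean of at least 20 counts. Nearest to LOC102595887 were LOC102599165, named chlorophyllase-2-like (distance 0.455), LOC102592966, named salicylate carboxymethyltransferase-like (0.722), and LOC102593917, named cysteine protease inhibitor 9-like (0.797). LOC102599165 had 15, 31 and 29 reads in C against 1403 and 1235 in D, so that C1 was low and D1 high as in LOC102595887. Nearest to TD were SS16, a sucrose synthase gene (0.0488), LOC102604255 (0.0947) and LOC102600084, of a G-type lectin receptor kinase (0.0965). SS16 had 1.09, 1.31 and 1.04 CPM in C and 4.93 and 5.17 CPM in D, with C2 highest in C as in TD. Nearest to LOC102583664 were the uncharacterized LOC102595461 (0.0835), LOC102588174, of an iron superoxide dismutase (0.237), and LOC102599454 (0.263). LOC102595461 was also read in D only, with 0 reads in each C library and 65 and 57 in D. The added 0.5 CPM narrows the profile of a gene as low as LOC102583664, so genes of higher level and smaller fold can come near it. The search used the contrast that chose the genes, so the likeness is a description.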

How the data were processed

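Leaf RNA-seq libraries of bulks C and D were prepared with a directional kit. The table the authors deposited holds counts per gene, not normalized, made by aligning reads to SolTub_3.0 with TopHat2 2.0.9 and Bowtie2 2.1.0 and counting with HTSeq. The strand setting of the counting is not given in the sources used here. All 163840 values were whole numbers of at least 0.

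The table has 7 header names over 1 field of gene names and 6 of counts. The names were read as standing 1 field left of their counts. This leaves no column for D3, and 1 count column was not used. An earlier analysis settled this reading by comparing values with the study's fold changes, not by the names alone. Of the 5 libraries only C3 would change its bulk if the names were read as they stand. Over the tested genes, C3 differed from C1 and C2 by 0.4525 and 0.347 (root mean square log2 CPM) and from D1 and D2 by 0.8429 and 0.9157.

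Genes were tested with edgeR 4.0.16 (quasi-likelihood, TMM scaling, Benjamini-Hochberg adjustment over all tested genes, threshold 0.05, no covariates) in R 4.3.3. A gene was tested with at least 10 scaled counts in at least 2 libraries and 15 in all, which held for 19630 genes, of which 3649 were lower and 3111 higher in C. The approximate SE is the log2 FC divided by the root of the F statistic. An exact permutation test of a single gene, 3 libraries against 2, could not give p below 0.1 and was not used. Exact tests within a bulk and intervals used scipy with Python, and cover counting error only. The fit was tested on simulated data.

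The genes named are the 3 genes, in each family list the up to 3 tested genes of highest mean CPM and the called gene of largest change, the threonine dehydratase genes, and the 3 nearest in profile. Genes outside this rule, including untested ones, neighbours, symbol-list genes, the other aminopeptidases and LOC102586169, were named after their values were seen. The genes and lists were chosen with earlier results of these data known. Lists are the seed genes alone, since membership by protein sequence was not built. Symbols matched the RefSeq annotation of SolTub_3.0 for 32736 genes. Its rows give no scaffold, so scaffolds were inferred from row order. Other names come from the study's gene lists, which also gave the genes that were grouped into lists here. Alternatives were other scaling, filters and tools (limma 3.58.1, DESeq2 1.42.0), the replicate number as a block and each library left out.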

Additional observations from a re-analysis of the deposited data

How the results depend on the processing

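The direction of LOC102595887 and TD held under every alternative run. For LOC102583664, whose bound rests on counts and library sizes alone, the lower bound of the fold was 18.1 to 20.6 with a library left out and 19.2 with median-of-ratios size factors. Against 3649 genes lower and 3111 higher in C, the fit with the replicate block called 2052 and 1396, and leaving out 1 library at a time gave 2121 to 3811 lower and 1951 to 3038 higher. The replicate numbers share only a number: nothing in the labels pairs the samples, and over the tested genes the difference C1 minus C2 correlated with D1 minus D2 at -0.3771, with C3 unpaired. Under the block the aminopeptidase list kept 2 calls of 6 (4 to 6 with a library left out). The signalling list had 5 calls with no filter on low counts and 1 with the stricter filter, against 2, because the filters set how many of its low genes were tested, and 1 to 2 with a library left out. Without D replicate 1 the log2 FC turned to -0.05 for LOC102577839, -0.01 for BCAT1 and -0.05 for RBCS-C, a Rubisco small subunit gene, and with 1 library left out their values reached 0.47, 0.14 and 0.19. LOC102577839 was called at 0.47 (adjusted p = 0.0276, without D replicate 2). Of single-gene values, 29 over 11 genes lost their call under some alternative and 2 gained one. Calls lost under the replicate block included BCAT2 (edgeR adjusted p = 0.138), LOC102596456 (0.0936), HPL (0.24) and LOC102578750 (0.1). Membership at 60 percent protein identity was not run, since no protein sequences were used here. With D replicate 1 or 2 left out, the lone D library was assumed to vary like C. The bulks hold 5 libraries in all, and levels below the floor of 3 counts (up to 0.142 CPM) were too low to be measured well.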
